A study of Mus musculus with 6 samples.

Results

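The 10 genes described here are a fixed set of mouse meiosis and germ cell genes: Stra8, Dazl, Ddx4, Sycp1, Sycp2, Sycp3, Smc1b, Rec8, Mael and Piwil2. The set is a list of names with no threshold on their values, though it was drawn up with earlier results of these data known. Each gene was found by its identifier and mouse symbol in the 6 libraries of an RNA-seq series. They are 10 of the 22600 genes counted, and all 10 were among the 15535 genes tested. The libraries were made from mouse embryonic stem (ES) cells and from FLICs, the labels' name for the cells differentiated from ES cells, all of C57BL/6 background and all cultured for 96 h. ES cells kept for 3 days in OHT (hydroxytamoxifen, an active metabolite of tamoxifen; n = 2) and FLICs treated in the same way (n = 1) are labelled TRF2-/-. Untreated ES cells (n = 2) and untreated FLICs (n = 1) are labelled wild-type. TRF2, encoded by Terf2, is a protein of the shelterin complex that shields chromosome ends from the DNA damage response. The sources used here do not give the allele that OHT acts on or the driver of the deletion. OHT and loss of TRF2 always came together in these groups, so an effect of the drug and an effect of the loss cannot be told apart. Nothing in the labels says that the 2 libraries of an ES cell group came from separate cultures, so the p-values below measure the spread between these libraries, which may be technical.

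Meiosis is the pair of cell divisions by which germ cells halve their chromosome number. In mice, retinoic acid switches on Stra8, the gatekeeper of meiotic entry. The cohesin subunits Rec8 and Smc1b and the axis proteins Sycp2 and Sycp3 then build a protein core along each chromosome, and Sycp1 zips homologous cores together in the synaptonemal complex. Dazl and Ddx4 are RNA-binding proteins of the germline, while Mael and Piwil2 act in the piRNA pathway, which silences transposons in the male germline. In somatic cells and in ES cells, many genes of this kind are held down by promoter DNA methylation and by repressor complexes that bind E-box and E2F-type sequences at their promoters.

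The sequences before the start sites of these genes are shown because 3 short motifs named in that background can be read in them directly. RefSeq promoter sequences (GRCm38.p6) were found for 9 of the 10 genes, Piwil2 being the gene with no entry in the table used. The 250 bases before each start were searched on both strands for 3 motifs. The first was the E-box CACGTG, which reads the same on both strands. The second was the E2F-type motif TCCCGC, which reads as its reverse complement on the other strand. The third was AGGTCA, the half-site of nuclear receptors such as those for retinoic acid, searched in the same way. The letters of the 3 motifs do not contain one another. Capitals mark the matches, and each sequence is written 5′ to 3′ along the strand of its gene. Stra8, Ddx4 and Rec8 are shown as 30-base windows around a match, because annotated exons overlap their windows. The Stra8 window lies wholly in annotated exon sequence (250 of 250 bases), inside the GENCODE gene, whose start is further upstream than the RefSeq one. The printed Ddx4 and Rec8 sites also lie inside their GENCODE genes. Annotated exons cover 165 of the 250 window bases of Ddx4 and 129 of those of Rec8. Sycp1, Sycp3 and Mael are shown over the upstream bases that lie outside annotated exons.
Stra8, upstream site, chr6:34920742-34920771 (+ strand): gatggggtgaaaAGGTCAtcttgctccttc
Stra8, downstream site, chr6:34920898-34920927 (+ strand): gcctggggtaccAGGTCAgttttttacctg
Ddx4, E-box site, chr13:112652322-112652351 (- strand): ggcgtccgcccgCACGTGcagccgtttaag
Ddx4, E2F-type site, chr13:112652429-112652458 (- strand): tccgtccatgggGCGGGAagtcgcgcgccg
Rec8, E2F-type site, chr14:55618116-55618145 (+ strand): gtgtgcacctgaTCCCGCtggagggcgaca
Sycp1, upstream region, chr3:102936101-102936350 (- strand): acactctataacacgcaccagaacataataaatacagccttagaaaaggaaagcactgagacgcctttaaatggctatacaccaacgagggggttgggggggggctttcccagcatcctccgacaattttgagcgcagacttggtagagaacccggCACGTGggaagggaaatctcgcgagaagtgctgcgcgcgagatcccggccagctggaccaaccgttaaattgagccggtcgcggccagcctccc
Sycp3, upstream region, chr10:88459337-88459568 (+ strand): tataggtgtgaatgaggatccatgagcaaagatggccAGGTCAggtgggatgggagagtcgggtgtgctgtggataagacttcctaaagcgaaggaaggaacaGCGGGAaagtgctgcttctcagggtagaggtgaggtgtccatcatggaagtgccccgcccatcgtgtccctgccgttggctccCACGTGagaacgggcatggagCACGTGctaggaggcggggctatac
Mael, upstream region, chr1:166238748-166238994 (- strand): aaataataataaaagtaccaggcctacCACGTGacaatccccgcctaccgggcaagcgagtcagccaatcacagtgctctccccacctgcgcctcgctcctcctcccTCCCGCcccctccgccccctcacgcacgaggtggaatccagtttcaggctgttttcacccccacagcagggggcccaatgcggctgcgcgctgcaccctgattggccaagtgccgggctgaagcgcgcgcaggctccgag

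CACGTG stood in 4 of the 9 windows, those of Ddx4, Sycp1, Sycp3 and Mael, while 6.02% of all 32851 RefSeq promoter windows of the same length held it. Sycp3 was the member with a pair of CACGTG matches, which began 64 and 43 bases before its start. TCCCGC or its reverse complement stood in 5 of the 9 windows, those of Ddx4, Sycp3, Smc1b, Rec8 and Mael, against 16.9% of all windows. AGGTCA stood in 2 of the 9, with a pair of matches before the RefSeq start of Stra8 and 1 before that of Sycp3, against 14.0% of all windows. The windows of Dazl and Sycp2 held none of these letters. Both CACGTG and TCCCGC contain the pair CG, and the windows compared were not matched for their content of CG. In the observed over expected ratio of CG, the windows with either motif lay above many others. The shares of all windows below them were 94.4% (Ddx4), 87.8% (Sycp1), 68.8% (Sycp3), 99.5% (Smc1b), 60.3% (Rec8) and 77.1% (Mael). For Dazl, Sycp2 and Stra8 they were 74.0%, 43.5% and 38.8%. Such a match describes the letters of a window and does not show that a factor bound there.

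**Figure D1:**
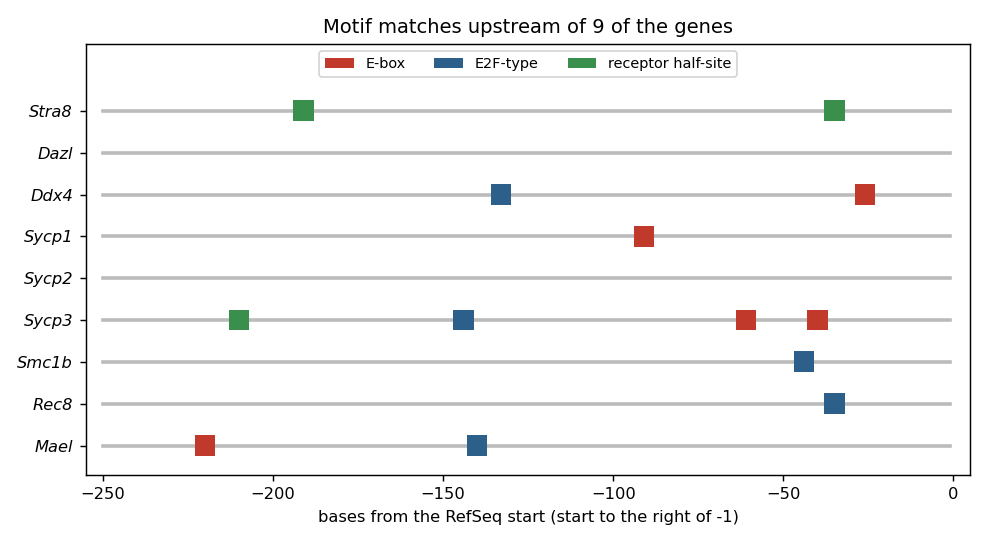
Positions of E-box, E2F-type and receptor half-site matches, on either strand, in the 250 bases before the RefSeq start of the 9 members with an entry. The x axis gives the distance from the start in bases, and each row is a gene. Sycp3 carries 4 matches, and Dazl and Sycp2 carry none.

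The target of the deletion was read first, as a check of the labels. Terf2 stood at 0.281 and 0.392 CPM (counts scaled to a common library size with TMM factors) in ES cells with OHT, against 18.3 and 19.5 CPM in untreated ES cells. In FLICs it stood at 0.114 CPM with OHT and at 8.27 CPM without. It was lower with OHT in ES cells by edgeR's quasi-likelihood test (log2 fold change -5.82, SE 0.26, adjusted p = 0.00622). The labelled cell types were read from marker lists. The summed level of the 10 ES cell markers was 3864 and 4050 CPM in ES cells with OHT and 4399 and 4483 CPM in untreated ES cells, and 97.6 and 152 CPM in FLICs with and without OHT. The 10 fibroblast markers summed to 16567 and 13251 CPM in FLICs with and without OHT, against at most 405 CPM in any ES cell library. Most of the FLICs sums was Acta2 (7921 and 5936 CPM) and Vim (6652 and 6173 CPM). Vim alone was 397 CPM in the ES cell library with the highest sum. Thy1, a fibroblast surface marker of that list, was nevertheless at 0.641 CPM in FLICs with OHT and 0.556 CPM in untreated FLICs. It was higher in the ES cell libraries, at 4.42 to 7.41 CPM. Total counts ran from 23534551 to 43965309 per library, so that 3 counts, the upper limit a count of 0 allows, equal 0.0686 to 0.118 CPM. These limits and the counting intervals below cover counting error only. The ES cell libraries with OHT lay further apart than the untreated pair: 470 of 12698 genes differed at least 2-fold on log2(CPM + 1) between the OHT libraries, 421 of them higher in replicate 2, and 0 of 12149 did between the untreated libraries. Sycp2 was the member among those 470.

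In ES cells with OHT, 9 of the 10 genes stood above untreated ES cells in both libraries, and Rec8 stood below. Of all genes tested, 25.2% stood above in this way and 27.6% below. Stra8, the gatekeeper of meiotic entry, rose 4.34-fold and was the member that passed edgeR's test at an adjusted p of 0.05. Across all genes tested, 0.521% were called higher. The synaptonemal complex genes Sycp1 and Sycp3 were 3.35-fold and 2.58-fold higher on average, at adjusted p-values just beyond that threshold. In FLICs, no gene of the set was above 1.30 CPM with or without OHT. Their summed level was 233.9 and 247 CPM in ES cells with OHT, 123 and 146 CPM in untreated ES cells, 2.36 CPM in FLICs with OHT and 2.32 CPM in untreated FLICs. In bulk RNA, more cells that express a gene and more RNA of that gene per cell cannot be told apart.

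**Figure D2:**
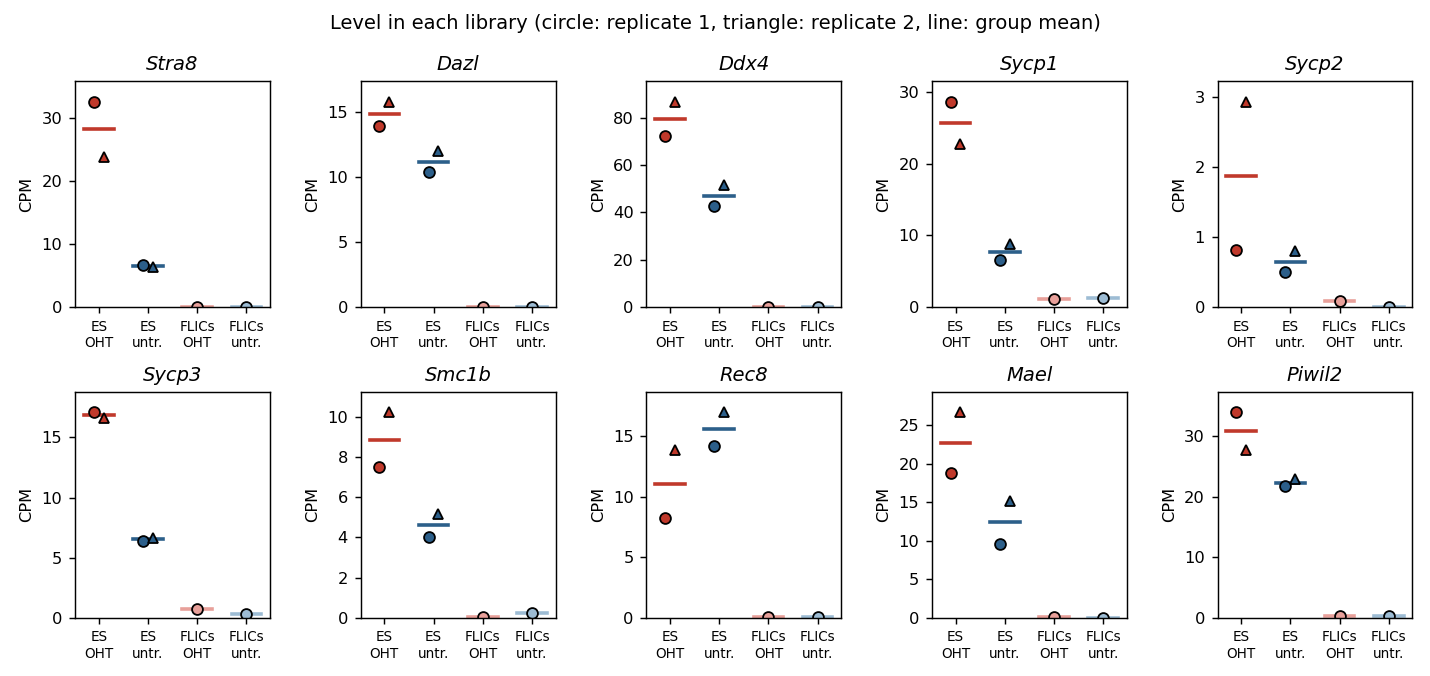
Level of each of the 10 genes in each of the 6 libraries, in CPM on a linear axis from 0, 1 panel a gene. Each point is 1 library and each line a group mean. In 9 genes both ES cell libraries with OHT lie above both untreated ES cell libraries, in Rec8 they lie below, and in both FLICs libraries the genes lie near 0. Of all genes tested, 25.2% lie above in ES cells in this way and 27.6% below.

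The entry gene came first in size. Stra8 (chr6:34920163-34939344 on the + strand of GRCm38, 10 exon blocks) had 32.5 and 23.8 CPM in ES cells with OHT, against 6.65 and 6.33 CPM in untreated ES cells. Both OHT libraries were high and both untreated libraries were low, with no overlap and with little spread between the untreated pair. The means were 28.2 ± 6.18 CPM with OHT and 6.49 ± 0.225 CPM without (SD, n = 2 each). The log2 fold change was 2.12 (SE 0.22, 95% interval 1.58 to 2.66), with an adjusted p of 0.0308 by edgeR's quasi-likelihood test over all genes tested. Across that comparison 0.521% of the genes tested were called higher and 0.0129% lower, so 1 called member of 10 is set against a small background. The Stra8 call was lost without untreated replicate 1 (adjusted p = 0.196) and without untreated replicate 2 (adjusted p = 0.215), at log2 fold changes of 2.15 and 2.08. With OHT replicate 1 left out the log2 fold change was 1.88, and with OHT replicate 2 left out it was 2.36. Those fits take their spread from the untreated pair alone, which lay closer together than the OHT pair. A call kept in them therefore says little about how firm the Stra8 call is.

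The synaptonemal complex genes followed. Sycp1, the transverse filament protein (chr3:102818499-102936100, - strand), had 28.6 and 22.7 CPM in ES cells with OHT, against 6.55 and 8.76 CPM in untreated ES cells. The groups did not overlap, and the lower OHT library was more than 2-fold above the higher untreated one. Its log2 fold change was 1.74 (SE 0.23, 95% interval 1.18 to 2.31) and its adjusted p was 0.0523, so it did not pass. Sycp3, an axis protein (chr10:88459569-88473236, + strand), had 17.1 and 16.6 CPM in ES cells with OHT, against 6.42 and 6.63 CPM in untreated ES cells. Its libraries were the closest pairs among the 10 genes, and the groups were well apart. Its log2 fold change was 1.37 (SE 0.18, 95% interval 0.93 to 1.80), and its adjusted p of 0.0501 did not pass either. Of the 10 genes, Sycp1 and Sycp3 are nearest the threshold on its outer side. Both were called with RLE scaling, DESeq2, no count filter, a replicate block and ES cell libraries only. Those fits called 114, 371, 262, 1206 and 148 genes in all, in that order, each more than the 83 of the main fit. Neither gene was called with a filter of 5 CPM in 2 libraries, where 46 genes were called, or without either untreated library.

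Reads of Sycp3 can be shared with a neighbour. Its exons overlap those of Chpt1, a gene of phospholipid synthesis on the opposite strand, over 660 bases, and whether the counting used strand is not stated. Chpt1 had 407 and 347 counts in ES cells with OHT, 308 and 459 counts in untreated ES cells, 910 counts in FLICs with OHT and 716 counts in untreated FLICs. Sycp3 had 548 and 423 counts in ES cells with OHT, 194 and 249 in untreated ES cells, 31 in FLICs with OHT and 10 in untreated FLICs. In these counts Chpt1 was highest in FLICs, where Sycp3 was lowest. The counts are not scaled for library size, and ES cell replicate 2 had 23534551 counts in all with OHT and 38670508 untreated. They therefore do not show whether Chpt1 differed between the ES cell groups. Whether shared reads added to the Sycp3 difference in ES cells was not tested. Sycp2, the partner of Sycp3 in the axis, was rare and uneven, with 0.811 and 2.94 CPM in ES cells with OHT against 0.497 and 0.798 CPM in untreated ES cells. The lower OHT library was barely above the higher untreated one. Its log2 fold change was 1.50 with an SE of 0.68 and a 95% interval of -0.18 to 3.19, and its adjusted p of 0.309 did not pass. Its log2 fold change was 2.15 with OHT replicate 1 left out and 0.33 with OHT replicate 2 left out.

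The meiotic cohesin subunits went in different directions. Smc1b, the meiotic partner of SMC3, had 7.52 and 10.2 CPM in ES cells with OHT, against 4.04 and 5.16 CPM in untreated ES cells. Rec8, the meiotic kleisin, had 8.21 and 13.8 CPM in ES cells with OHT, against 14.2 and 17.0 CPM in untreated ES cells. In Smc1b both OHT libraries were the higher ones, and in Rec8 they were the lower ones, although the second OHT library of Rec8 lay close to the first untreated library. The log2 fold changes were 0.94 (SE 0.26, adjusted p = 0.169) for Smc1b and -0.50 (SE 0.29, adjusted p = 0.392) for Rec8, and neither passed edgeR's test. With OHT replicate 1 left out, Rec8 had a log2 fold change of -0.17. With OHT replicate 2 left out, the value was -0.89, so the size of the Rec8 difference rests largely on OHT replicate 1.

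The germline RNA-binding and piRNA genes had smaller differences. Ddx4, an RNA helicase also known as mouse Vasa, had 72.4 and 86.9 CPM in ES cells with OHT, against 42.6 and 51.5 CPM in untreated ES cells. Dazl, a translational regulator, had 13.9 and 15.8 CPM in ES cells with OHT, against 10.4 and 12.0 CPM in untreated ES cells. In both genes the OHT libraries were the higher pair, with a narrow gap in Dazl. Mael, a component of the perinuclear granules of germ cells, had 18.8 and 26.7 CPM in ES cells with OHT, against 9.63 and 15.1 CPM in untreated ES cells. Piwil2, a PIWI protein that binds piRNAs, had 34.0 and 27.8 CPM in ES cells with OHT, against 21.7 and 22.9 CPM in untreated ES cells. None of these 4 groups of libraries overlapped, and none of the 4 genes passed the test. Their log2 fold changes were 0.76 for Ddx4 (adjusted p = 0.132), 0.41 for Dazl (adjusted p = 0.312), 0.87 for Mael (adjusted p = 0.211) and 0.47 for Piwil2 (adjusted p = 0.244), all by edgeR's test.

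Over the whole set, 9 genes had both OHT libraries above both untreated libraries and 1 had them below. The same held for 25.2% (above) and 27.6% (below) of all genes tested. At an unadjusted p under 0.05, 7 of the 10 were higher and 0 were lower, beside 10.5% and 7.79% of all genes tested. With RLE scaling 3 members were called, Stra8, Sycp1 and Sycp3, beside 114 of all 15535 genes tested. With DESeq2 4 were, Ddx4 being added, beside 371 of 15535. The main fit called 83 of 15535. The 7 at the unadjusted threshold were Stra8, Ddx4, Sycp1, Sycp3, Smc1b, Mael and Piwil2. The median log2 fold change of the 10 was 0.91, while that of all genes tested was -0.01. Without OHT replicate 1 the median was 1.12, without OHT replicate 2 it was 0.65, without untreated replicate 1 it was 0.70, and without untreated replicate 2 it was 1.19. These medians describe a list that was chosen with earlier results of these data known.

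**Figure D3:**
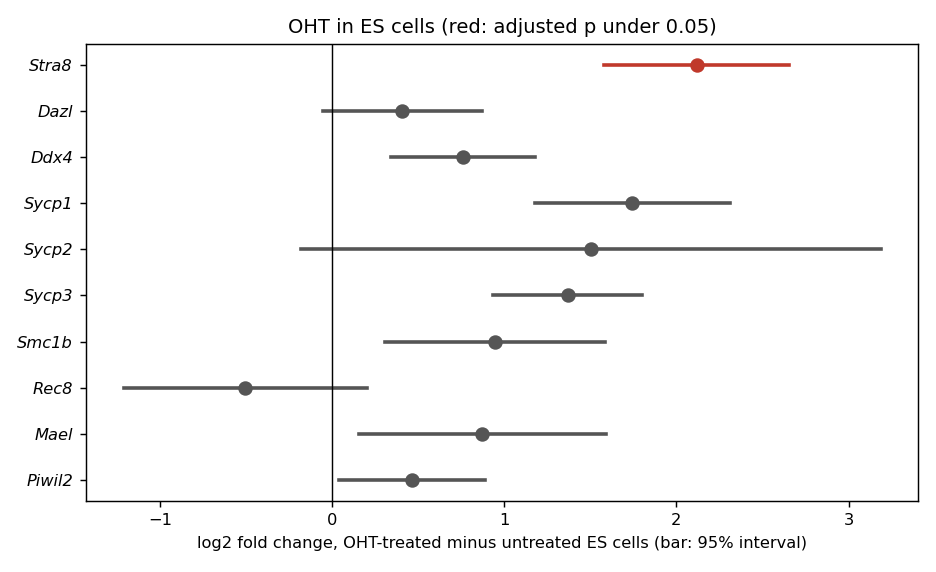
Log2 fold change of each of the 10 genes in ES cells with OHT over untreated ES cells; points are edgeR estimates and bars their 95% intervals (n = 2 libraries each). Stra8 at 2.12 was the gene called at an adjusted p of 0.05, and Rec8 at -0.50 was the gene below 0.

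The order of the genes by level, in CPM per kilobase of deposited length, differed between the ES cell groups most in the place of Stra8. In ES cells with OHT, the mean levels ran from Ddx4 (36.5), Stra8 (23.9), Sycp3 (21.2), Mael (17.5), Dazl (16.7) and Piwil2 (10.6) down to Sycp1 (8.62), Rec8 (6.22), Smc1b (2.37) and Sycp2 (0.417). In untreated ES cells the order was Ddx4 (21.5), Dazl (12.5), Mael (9.50), Rec8 (8.79), Sycp3 (8.21), Piwil2 (7.67), Stra8 (5.51), Sycp1 (2.57), Smc1b (1.23) and Sycp2 (0.144). Stra8 was thus in place 7 in untreated ES cells and in place 2 with OHT. Ddx4 led and Sycp2 came last in both groups. In ES cells with OHT, the libraries of neighbouring genes overlapped for Stra8 and Sycp3, for Mael and Dazl, for Piwil2 and Sycp1, and for Sycp1 and Rec8. In untreated ES cells they overlapped for Mael and Rec8 and for Rec8 and Sycp3. The deposited lengths of all 10 genes are multiples of 3, as coding lengths are, so a per-kilobase level may leave out untranslated parts.

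FLICs were then compared with ES cells in the same fit, in which the single FLICs library is assumed to vary like the ES cell libraries. With OHT, FLICs were lower than ES cells in all 10 genes at an adjusted p of 0.05, while 29.3% of all genes tested were called lower and 28.4% higher. Without OHT, FLICs were again lower in all 10, while 28.7% of all genes tested were called lower and 26.2% higher. It was mainly their ES cell counts that carried these genes past the low-count filter, so both counts are a description. The median log2 fold change with OHT was -8.54, beside -0.07 for all genes tested. Without OHT it was -7.68, or -6.30 with genes at 0 in FLICs set to their bound, beside -0.11 for all genes tested.

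Stra8 had 0 counts in each FLICs library. Taken against 3 counts in the FLICs library, it was at least 418-fold lower in FLICs than in ES cells with OHT. Without OHT it was at least 69.9-fold lower on the same bound. The 95% counting interval used for the other genes gives lower bounds of 339-fold and 56.6-fold. Mael had 2 counts in FLICs with OHT and 0 in untreated FLICs. Without OHT it was at least 137-fold lower in FLICs than in ES cells against 3 counts, or 111-fold by the counting interval. Ddx4, at 7 counts in FLICs with OHT and 5 in untreated FLICs, was 308-fold lower in untreated FLICs than in the untreated ES cell pair (95% counting interval 132 to 949). Most of the set was therefore at or near the limit of detection in FLICs. Piwil2, at 10 and 8 counts in FLICs with and without OHT, was 90.7-fold lower in the same comparison (45.9 to 211). Dazl had 1 count in each FLICs library, and Rec8 had 1 count in FLICs with OHT and 2 in untreated FLICs.

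Sycp1 and Sycp3 had the most counts of the 10 in FLICs. Whether some of the Sycp3 counts came from the overlapping gene Chpt1, which had 910 and 716 counts there, was not tested. Sycp1 had 46 counts in FLICs with OHT and 42 in untreated FLICs, or 1.05 and 1.30 CPM, the highest level of any of the 10 in CPM. It was 24.7-fold lower in FLICs with OHT than in ES cells with OHT (95% counting interval 18.4 to 33.9) and 6.00-fold lower in FLICs than in ES cells without OHT (4.38 to 8.42). Its log2 fold change between untreated FLICs and untreated ES cells, -2.56, was the smallest fitted drop among the 10. Sycp3 was 23.8-fold lower in FLICs with OHT than in ES cells with OHT (16.6 to 35.2) and 21.2-fold lower in FLICs than in ES cells without OHT (11.4 to 44.5). Per kilobase, Sycp3 stood at 0.892 and Sycp1 at 0.353 in FLICs with OHT, and Sycp3 stood at 0.388 and Sycp1 at 0.435 in untreated FLICs, which makes these genes the top pair in both libraries. Smc1b, at 1 count in FLICs with OHT and 7 in untreated FLICs, was 21.6-fold lower in FLICs than in ES cells when both were untreated (10.3 to 54.1). Sycp2 had 4 counts in FLICs with OHT and 0 in untreated FLICs.

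**Figure D4:**
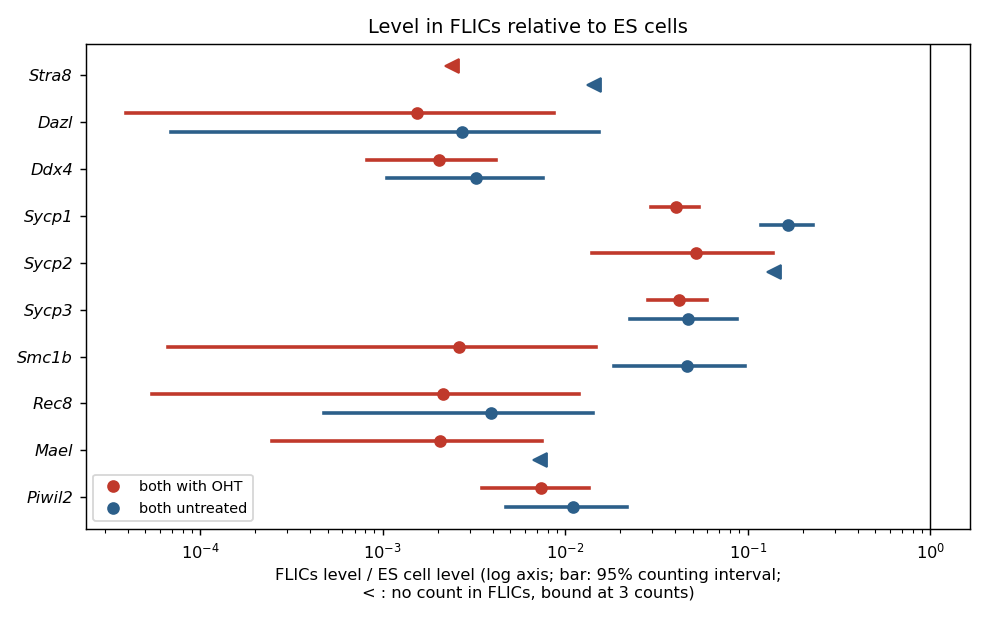
Level of each of the 10 genes in FLICs divided by its level in ES cells, on a log axis, with OHT (red) and without (blue). Bars are 95% counting intervals (1 FLICs library over 2 ES cell libraries), and arrowheads mark genes at 0 counts in FLICs, drawn at the bound that 3 counts give. All 10 genes lie left of 1 in both comparisons, and Sycp1 without OHT lies nearest to it.

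In FLICs, OHT was set against no treatment without a test, since each group is 1 library. Sycp1 was the member with a mean of at least 1 CPM, at 1.05 CPM with OHT and 1.30 CPM without, a ratio of 0.812 (95% counting interval 0.523 to 1.26). Sycp1 did not reach a 2-fold difference on log2(CPM + 1), while 0.424% of the 11789 genes at or above that mean were past the fold upward and 0.102% downward. The other 9 members lay under 1 CPM in both FLICs libraries, where that scale cannot show a 2-fold difference. Sycp3 had 31 counts with OHT and 10 without, a ratio of 2.30 (1.10 to 5.25). Smc1b had 1 count with OHT and 7 without, a ratio of 0.106 (0.00235 to 0.824). The counting intervals of Sycp3 and Smc1b leave out 1, in opposite directions, at levels under 1 CPM. Any share of Chpt1 reads in the Sycp3 counts was not tested. The other members had between 0 and 10 counts in each FLICs library, and Stra8 had 0 in both. Whether OHT acts differently on these genes in FLICs and in ES cells was not tested.

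The pathways around the 10 genes were described from lists that hold none of them. In the main fit, no gene of the meiotic, germline or gonadal lists below was called under OHT in ES cells by edgeR's test. Of all genes tested, 0.534% were called there in either direction. Several of the genes named below were called in some of the alternative fits, among them Crabp2, Asz1, Nanos3, Kit and Dmrt1. Of 15 other genes of the meiotic axis and of synapsis, 13 had a fold change above 0 and 2 below, with a median of 0.58; 48.7% of all genes tested had a fold change above 0. 4930447C04Rik, a synaptonemal complex gene also known as Six6os1, had 14.0 and 23.3 CPM in ES cells with OHT, against 7.32 and 8.81 CPM in untreated ES cells (log2 fold change 1.21, adjusted p = 0.149). Meioc, which sustains meiotic prophase, had 17.1 and 22.9 CPM with OHT, against 7.94 and 11.4 CPM untreated (log2 fold change 1.04, adjusted p = 0.149). Neither pair of groups overlapped. The mitotic cohesin genes formed a contrast to these in direction: all 11 had a fold change below 0, at a median of -0.19. The log2 fold changes ran from -0.04 to -0.72, and none of the 11 was called. In 6 of them both OHT libraries lay below both untreated libraries, beside 27.6% of all genes tested. Smc1a, the mitotic counterpart of Smc1b, had 379 and 415 CPM in ES cells with OHT, against 629.6 and 678 CPM in untreated ES cells (log2 fold change -0.72, adjusted p = 0.115).

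Of 19 tested genes of retinoic acid signalling and meiotic entry, 15 had a fold change above 0 and 4 below, at a median of 0.62. That median was 0.46 with the genes at 0 in 1 group set to their bound. The 4 below 0 were the receptor genes Rara (-0.26), Rarg (-0.07), Rxra (-0.39) and Rxrb (-0.29). The receptor genes Rarb and Rxrg were above 0, at under 1 CPM in every ES cell library. The summed level of the list was 286 and 232 CPM in ES cells with OHT, against 279 and 263 CPM in untreated ES cells, so the sum did not rise in both OHT libraries. Crabp2, a carrier of retinoic acid in the cytoplasm, had 11.3 and 8.70 CPM in ES cells with OHT, against 3.28 and 3.22 CPM in untreated ES cells. Its groups lay well apart, but its adjusted p was 0.0520 at a log2 fold change of 1.62. Rdh10, an enzyme that makes the precursor of retinoic acid, had 5.59 and 5.45 CPM with OHT, against 3.44 and 3.75 CPM untreated (log2 fold change 0.62, adjusted p = 0.182).

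Of 18 tested genes of the PIWI and piRNA pathway, 12 had a fold change above 0 and 6 below, at a median of 0.43. Asz1, a germ cell protein needed for piRNA production in mice, had 3.84 and 2.71 CPM in ES cells with OHT, against 0.629 and 0.692 CPM in untreated ES cells. Tdrd1, a tudor protein that binds PIWI proteins, had 2.59 and 2.39 CPM with OHT, against 0.828 and 0.825 CPM untreated. Both genes stood well above their untreated libraries, at log2 fold changes of 2.30 and 1.59, and neither passed (adjusted p = 0.0700 and 0.117). Of 21 tested genes of meiotic recombination, 14 had a fold change above 0 and 7 below, at a median of 0.22. Tex11, an X-linked crossover factor, had 12.3 and 11.5 CPM with OHT, against 6.49 and 7.72 CPM untreated (log2 fold change 0.74, adjusted p = 0.161). Mlh3, a crossover nuclease subunit, had 40.9 and 44.5 CPM with OHT, against 62.8 and 65.8 CPM untreated (log2 fold change -0.59, adjusted p = 0.135).

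Markers of germ cell stages did not share 1 direction. Of 11 primordial germ cell genes, 5 had a fold change above 0 and 6 below, at a median of -0.07. Nanos3, which keeps primordial germ cells alive, had 8.83 and 7.02 CPM in ES cells with OHT, against 2.95 and 3.06 CPM in untreated ES cells (log2 fold change 1.40, adjusted p = 0.0780). Kit, the receptor for stem cell factor, had 57.4 and 56.3 CPM with OHT, against 98.7 and 108 CPM untreated (log2 fold change -0.87, adjusted p = 0.0680). The higher and the lower gene each kept its groups apart. Of 10 spermatogonium genes 8 were above 0, at a median of 0.23; Dmrt1 had the largest fold change of those averaging at least 1 CPM in an ES cell group (31.9 and 28.0 CPM with OHT, against 11.7 and 14.5 CPM untreated, adjusted p = 0.0700). Of 9 oocyte genes 7 were above 0, at a median of 0.56, and of 6 spermatocyte and spermatid genes 5 were, at a median of 0.43. Only 9 of 15 listed oocyte genes and 6 of 15 listed spermatocyte and spermatid genes were counted highly enough to be tested.

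Further marker lists were read beside these genes. The 2-cell-state list, made of Zscan4, Usp17l, Tdpoz and related genes that mark the early embryo and a small share of cultured ES cells, was called higher for 14 of its 18 genes, at a median of 4.28. Its summed level was 357 and 268 CPM in ES cells with OHT, 17.6 and 18.1 CPM in untreated ES cells, 0.366 CPM in FLICs with OHT and 0.309 CPM in untreated FLICs. Its Zscan4, Usp17l and Tdpoz genes are families of near-identical copies, so single counts among them are uncertain, and the list's part in the levels of the 10 genes was not tested. The repressors of germline genes, which include DNA methyltransferases and E2F6 and MGA complex subunits, had 6 genes above 0 and 17 below, none called, at a median of -0.17. Among them Tfdp1, a dimerization partner of E2F proteins, had 122 and 92.9 CPM in ES cells with OHT, against 178 and 151 CPM in untreated ES cells (log2 fold change -0.62, adjusted p = 0.188). Dnmt1, the maintenance DNA methyltransferase, had 509 and 345 CPM with OHT, against 628 and 585 CPM untreated (log2 fold change -0.51, adjusted p = 0.285), while Dnmt3a, a de novo DNA methyltransferase, had 115 and 69.2 CPM with OHT, against 65.1 and 59.9 CPM untreated (log2 fold change 0.56, adjusted p = 0.305). Gonadal somatic markers had 6 of 10 tested genes above 0 and 4 below, at a median of 0.16. Their sum was 140 and 269.8 CPM in ES cells with OHT and 129.9 and 156 CPM in untreated ES cells. Most of that sum was Rhox5, while the hormone receptor genes Fshr and Lhcgr and the steroid enzyme gene Hsd3b1 had 0 counts in all 6 libraries.

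**Figure D5:**
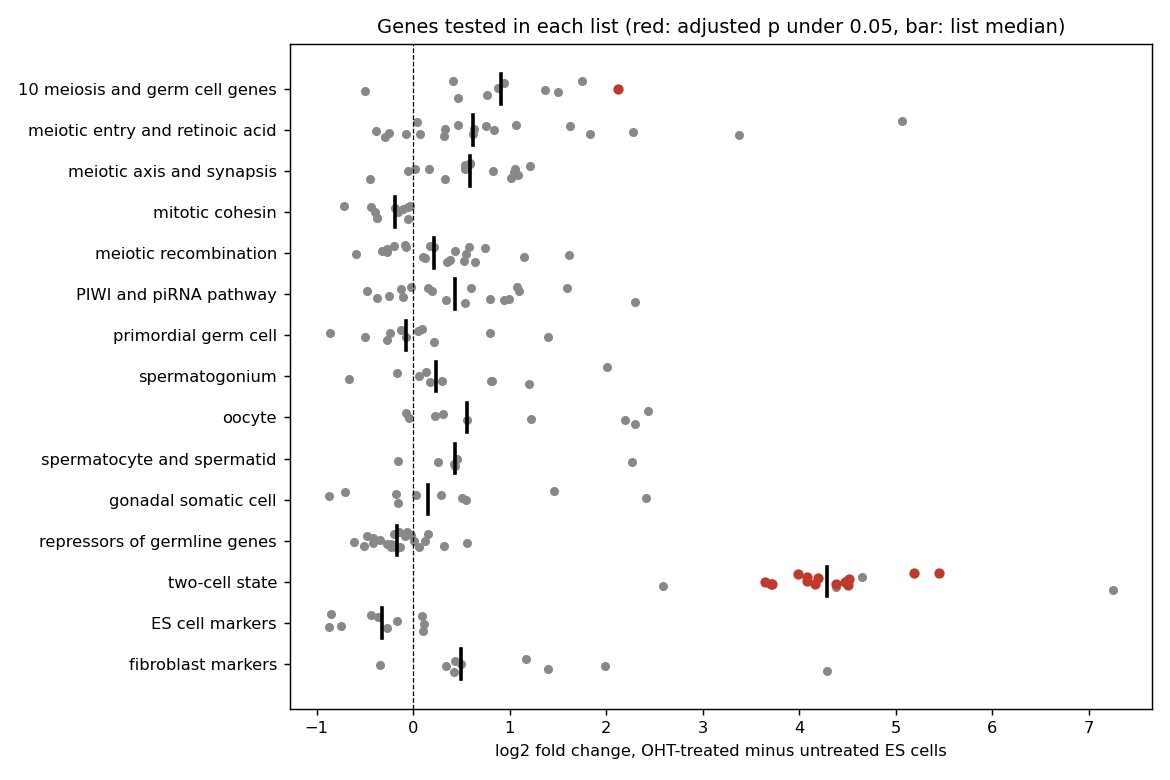
Log2 fold change of each tested gene in ES cells with OHT over untreated ES cells, by gene list; each point is a gene and each bar a list median. The 10 genes described here have a median of 0.91, the 2-cell-state list 4.28, the mitotic cohesin list -0.19 and the ES cell markers -0.32.

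In FLICs, many of the surrounding meiotic genes were low as well. These calls set 1 FLICs library against a pair, over genes that entered the test largely through their ES cell counts, so they are a description. Between untreated FLICs and untreated ES cells, 11 of 15 genes of the axis and synapsis list were called lower, as were 14 of 21 recombination genes, 13 of 18 piRNA pathway genes and all 11 primordial germ cell genes, beside 28.7% of all genes tested. In the same comparison 1 recombination gene (Prdm9) and 1 piRNA pathway gene (Tdrd7) were called higher, beside 26.2% of all genes tested. Of the retinoic acid and meiotic entry list, 5 genes were called higher and 4 lower, so that list did not share the direction of the 10. With OHT, 12 of 15 axis and synapsis genes, 15 of 21 recombination genes, 12 of 18 piRNA pathway genes and all 11 primordial germ cell genes were called lower, beside 29.3% of all genes tested.

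The genes whose profile over the 6 libraries was most like the mean profile of the 10 were Rhox1, Spata31d1a, Saa3, Klk11 and Slc30a2. Likeness was the root mean square distance of log2 CPM, centred for each gene over the 6 libraries, among 12092 genes outside the lists. These had a symbol, a mean of at least 1 CPM over the 6 libraries, and no Gm, Rik or pseudogene name. The distances ran from 0.198 for Rhox1 to 0.240 for Slc30a2. Among the 10 themselves, Piwil2 lay nearest to the mean profile at 0.313 and Sycp2 farthest at 1.37. Rhox1, a homeobox gene, had 5.49 and 7.65 CPM in ES cells with OHT, 2.05 and 3.03 CPM in untreated ES cells and 0 counts in both FLICs libraries. Its ES cell groups did not overlap, and its log2 fold change of 1.36 did not pass edgeR's test (adjusted p = 0.139). Rhox1 was picked for its likeness over these same libraries, so its pattern is a description.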

How the data were processed

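The authors deposited 1 table of whole-number counts per gene for 6 RNA-seq libraries of mouse cells, with a length for each gene and no normalization. Per the labels, RNA was isolated with RNeasy columns and libraries were made with a stranded total RNA kit. Salmon, DESeq2 and GRCm38 are named in the submitters' processing notes, without versions; the sources used here give no settings. Symbols were matched for 22509 of the 22600 genes, and the 13 mitochondrial genes had 0 counts throughout. Positions are from GENCODE M21 on GRCm38.

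Counts were filtered with filterByExpr, scaled by TMM and fitted with edgeR 4.0.16 (limma 3.58.1, R 4.3.3) with 1 mean per group over all 6 libraries and 2 residual degrees of freedom. The Benjamini-Hochberg method adjusted p over 15535 genes, with calls at 0.05. The biological coefficient of variation was 18.5%. Sampling noise alone did not account for the gap between replicates, with a chi-square of 66.3 per degree of freedom for the OHT pair and 13.2 for the untreated pair. The code was tested on simulated data.

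The 10 genes, the gene lists and the tests were chosen with earlier results of these data known. Genes named beside the 10 were Terf2, genes called within a list, otherwise up to 4 of a list with the largest absolute log2 fold change in ES cells and a mean of at least 1 CPM in an ES cell group, of which the text gives some, and the 5 nearest profiles. Marker genes at or near 0, Chpt1, Prdm9 and Tdrd7 were named after their values were seen. Alternatives were another scaling (RLE), DESeq2 1.42.0, 2 other filters, a replicate block, ES cell libraries alone, each ES cell library left out, and for FLICs other pseudocounts and filters.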

Additional observations from a re-analysis of the deposited data

Results flagged for a closer look

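In FLICs Sycp1 was not shown to move in either direction. There the library with OHT was below the untreated library by 0.16 on log2(CPM + 1) (a difference of -0.16, from 46 counts with OHT and 42 untreated), while both ES cell libraries with OHT were above both untreated ones (adjusted p = 0.0523 by edgeR's test). The difference between the cell types was not tested, since each FLICs group is 1 library, and the counting interval of the FLICs ratio, 0.523 to 1.26, includes 1.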

How the results depend on the processing

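Under OHT in ES cells 83 genes were called, against 114 with RLE scaling, 371 with DESeq2, 262 with no count filter, 46 with a filter of 5 CPM in 2 libraries, 148 with ES cell libraries only and 18 to 6165 with 1 library left out. The called members numbered 3 with RLE scaling, 4 with DESeq2, 3 with no count filter, 3 with ES cell libraries only and 0 to 8 with 1 library left out; the cause was not tested. Their median ran from 0.65 to 1.19 with 1 library left out. The replicate block gave 1206 genes and 6 members; equal numbers share no stated batch, and deviations of same-numbered libraries correlated at 0.345 over 15535 genes. FLICs against ES cells without OHT had 5375 to 12025 calls with 1 library left out, and a member median of -7.38 with DESeq2, -7.91 with the 5 CPM filter, -7.16 with the replicate block and -7.90 to -7.40 with 1 library left out. With OHT that median was -8.81, -8.78, -8.28 and -8.81 to -8.23 in that order of settings. In FLICs, a pseudocount of 0.5 put 112 genes past the fold, against 62. All 10 members kept the direction of their fold change in every fit that tested them. Among other named genes, near-zero changes reversed: Ooep (-0.05) was 0.00083 with RLE scaling, 0.0020 with DESeq2, 0.033 with the 5 CPM filter and -0.59 to 0.37 with 1 library left out. Tle6 (-0.07) was 0.0011 with the 5 CPM filter and -0.23 to 0.10 with 1 library left out. In the same settings Zp3 ran from -0.10 to 0.66, Aldh1a3 from -0.24 to 1.36, Dmc1 from -0.12 to 1.06, Dmrtb1 from -0.30 to 1.44 and Gata4 from -0.79 to 0.26.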
